A study of Arabidopsis thaliana with 12 samples.

Results

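Root cortex nuclei of Arabidopsis thaliana with a DNA content of 8C were compared with nuclei of 2C. The 2 classes lie 2 doublings of the genome apart, and the comparison leaves out the 4C class, in which nuclei in G2 and nuclei that have passed 1 endocycle have the same DNA content. It rests on the 3 arrays titled 8C and the 3 titled 2C, 6 of the 12 arrays of the series, and on 22746 probe sets, which are all those on the array that are not control sets. Every class came from 5-day-old roots of the Col-0 ecotype, and all plants carried the reporter pCO2:YFP-H2B, in which a cortex promoter drives histone H2B joined to a yellow fluorescent protein. Plants grew in continuous light, with no treatment. Nuclei of many pooled roots were sorted by reporter fluorescence and DAPI-stained DNA, and nuclear RNA was amplified in 2 rounds before hybridisation to ATH1 arrays. Arrays of 1 class are biological replicates, as their titles say. Reporter brightness chose the nuclei, so nuclei of cortex cells with a silent reporter are not represented, and a class holds nuclei from every position along the root that share a DNA content.

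In the endocycle a cell replicates its DNA without dividing, so its nucleus doubles its DNA content with each round. Cells of the root cortex divide in the meristem and enter endocycles as they leave it and elongate. DNA replication needs a helicase made of MCM proteins, DNA polymerases alpha, delta and epsilon with their primase, and new histones to pack the copied strand, whereas mitosis needs Aurora kinases and checkpoint proteins. A nucleus of 2C can belong to a dividing cell in G1, to a cell in early S phase or to one that has stopped dividing. DNA content does not separate these, and fewer nuclei of one kind cannot be told apart from less RNA per nucleus.

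Of 5 measured genes of DNA replication 4 fell from 2C to 8C, as did 4 of 7 measured histone genes. The 10 largest falls were those of the defensin-like gene LCR69, of the methionine enzyme gene MGL and of 8 genes known only by a locus code, and WRKY6, WRKY47, OASA2 and SAG101 were among the large rises. Across all probe sets 4981 passed an adjusted p of 0.05 in limma, 21.9% of those tested. Of these, 2344 were higher in 8C, 10.3% of those tested, and 2637 were lower, 11.6%. Among the 13355 genes that a probe set of their own measured, 2612 passed, or 19.6%, with 1278 higher (9.57%) and 1334 lower (9.99%). Signals are log2 values, so a change of 1 is a 2-fold change. The called rises had a median of 0.85 and the called falls a median of -1.02. At least 4-fold changes were found in 250 rises and 340 falls, and at least 8-fold changes in 32 rises and 104 falls. On 8770 probe sets (38.6%) the 3 arrays of one class all lay above the 3 of the other, 4835 with 8C above (21.3%) and 3935 with 8C below (17.3%). The largest rises and falls named below were chosen among genes without overlap, so for them that trait was set by the choice. Called members of lists were named by small p, which favours a lack of overlap, so for them it is no further support.

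**Figure D1:**
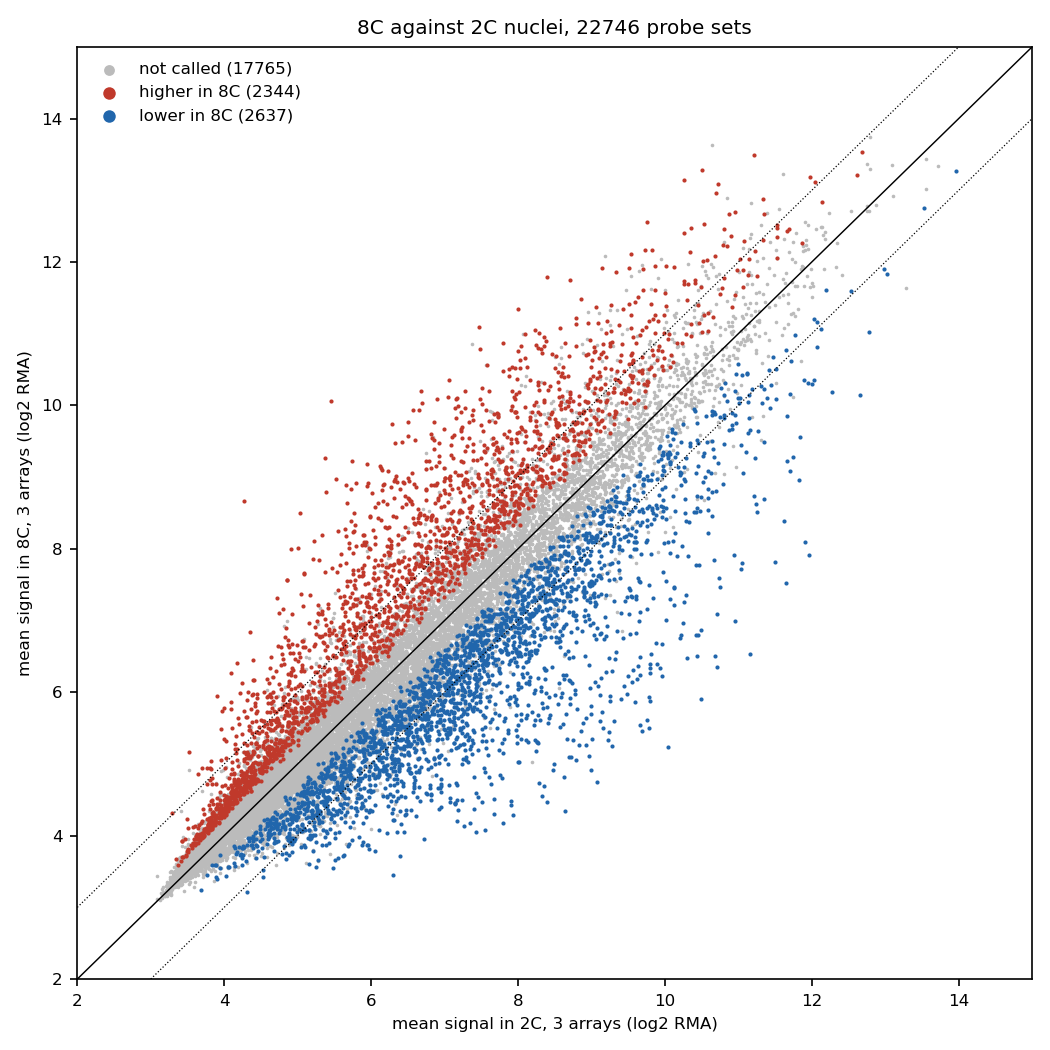
Each point is 1 of 22746 probe sets, with its mean signal over the 3 arrays of 2C (x axis, log2) and of 8C (y axis, log2). Red points are the 2344 called higher in 8C, blue points the 2637 called lower, and dotted lines mark a 2-fold change. Beyond an 8-fold change there are 104 falls and 32 rises.

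The number of calls depended on how the spread was estimated. The 12 arrays share 1 estimate of spread per probe set, and with only the 6 arrays of 2C and 8C in the fit 2412 probe sets passed, 1012 higher and 1400 lower. Without 8C replicate 1, 3266 of the probe sets passed. The split between rises and falls depended on scaling: when arrays were shifted to equal means of 10 reference genes, 5578 were called higher and 1708 lower, and the median change of all probe sets moved from 0.06 to 0.32. Of these 10 genes 1 was itself called lower. The lowest change among them was -1.75, against a median of -0.14, so a changed member contributes to the shift. Directions below are relative to the deposited scale. Under that scaling the counts for replication and histone genes stayed at 4 lower and 0 higher each, those of UDP-glycosyltransferases became 17 higher and 0 lower, and those of the cytoskeleton 6 higher and 12 lower.

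Measures of the RNA differed between the classes as well. The difference between the 3' and 5' control probe sets of actin, which grows when transcripts are shortened at the 5' end, was 4.55 ± 0.16 (SD, n = 3) in 2C and 3.42 ± 0.12 (n = 3) in 8C, and the arrays of the classes did not overlap. For GAPDH the same difference was 4.85 ± 0.38 in 2C and 5.05 ± 0.17 in 8C, and for ubiquitin 2.90 ± 0.29 and 2.81 ± 0.06, and the classes overlapped in both. The poly-A transcripts added to the RNA read 10.9 ± 0.5 in 2C and 9.00 ± 1.08 in 8C. Exact permutation tests over the 20 assignments of 6 arrays gave p = 0.1 for actin and for the poly-A transcripts, 0.2 after adjustment over 6 measures. That is the smallest p that 3 arrays against 3 can give. The actin difference separates 2C from 8C without overlap, so a fit with it as a covariate has little power to call a change between these classes. In that fit 0 probe sets passed in limma and 977 had an unadjusted p under 0.05. The median SE of the 4981 called probe sets rose from 0.20 to 0.72, their median size of change went from 0.95 to 0.63, and 3954 kept their sign. Of the 160 called genes chosen for naming 21 changed sign with that covariate, among them HTB1, HTB11, ATG8C, CSLD2, UGT73B5, SEC1B, clpP, AT2G22760 and AT1G03660. With the poly-A transcripts as a covariate 1715 passed. The part of these measures in the results below was not tested.

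**Figure D2:**
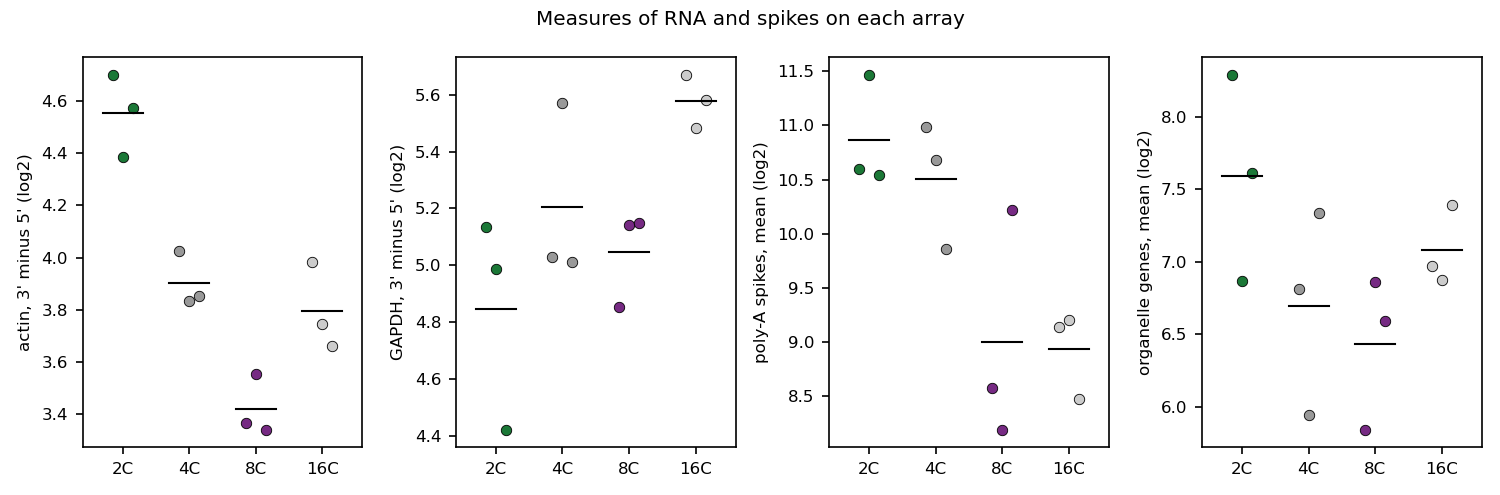
The 3' minus 5' difference of actin and of GAPDH, the mean of the added poly-A transcripts and the mean of the organelle genes (y axes, log2) are shown for each array, by class (x axis). Horizontal bars are means of 3 arrays. For actin, the poly-A transcripts and the organelle genes the 2C arrays all lie above the 8C arrays, and for GAPDH they overlap.

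Of 5 measured genes of the replication machinery, 4 fell and 0 rose (80.0% called, against 19.6% of all genes). Their median change was -1.82 against 0.06 for all genes. PRL, also named MCM7, is a subunit of the replicative helicase. It read 8.23, 7.96 and 6.85 on the 2C arrays and 4.27, 4.34 and 4.30 on the 8C arrays. The lowest 2C array thus lay far above the highest 8C array, and the 8C arrays were nearly alike. These 8C readings lay below the medians of the 8C arrays, 5.22 to 5.28, and no detection calls go with the values. The transcript of PRL was therefore not shown to be present in 8C, and low signal may limit the size of its fall. PRL fell by 3.38 ± 0.28 (moderated SE) on the log2 scale, 10.4-fold, with an adjusted p of 7.22e-05. Its 4C arrays, at 5.64, 5.55 and 5.38, lay between both classes, and its 16C arrays lay between 4.71 and 5.05, above those of 8C.

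POLA3, a subunit of the complex of DNA polymerase alpha and primase, read 7.58, 7.84 and 6.33 in 2C and 4.99, 5.12 and 5.11 in 8C. It fell by 2.18 ± 0.32 (adjusted p = 0.00123). ICU2, the catalytic subunit of the same polymerase, read 6.08, 5.39 and 4.68 in 2C against 3.71, 3.95 and 3.93 in 8C. The 2C arrays of ICU2 were widely spread, with replicate 3 the lowest, and did not overlap with 8C. ICU2 fell by 1.52 ± 0.28 (adjusted p = 0.00383). POLD3, a subunit of DNA polymerase delta, read 6.65, 6.65 and 5.40 in 2C against 4.57, 4.33 and 4.34 in 8C, and it fell by 1.82 ± 0.30 (adjusted p = 0.00215). In all 4 genes 2C replicate 3 was the lowest of its class, and the 8C arrays lay within a narrow band. That band was below the median of every 8C array, so low expression and absence cannot be told apart there. PSF2, a subunit of the GINS complex that travels with the helicase, went from 4.55 ± 0.38 to 4.19 ± 0.17 and was not called (adjusted p = 0.22). The 4 calls held in the fit of 6 arrays, and in the full fit without any 1 array of 2C or 8C. In the fit of 6 arrays with 1 left out, between 1 and 4 of the 5 genes were called. With the poly-A transcripts as a covariate only PRL was still called.

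Histone genes showed the same direction in 4 of 7 measured members (57.1%, against 19.6% of all genes called), with 0 higher and a median of -1.13. HTB4, an H2B gene, read 8.67, 8.05 and 7.90 in 2C and 6.74, 6.76 and 7.05 in 8C, and fell by 1.36 ± 0.20 (adjusted p = 0.00114). HTB11, another H2B gene, read 6.95, 6.18 and 5.81 against 4.85, 4.62 and 4.89, and fell by 1.53 ± 0.33 (adjusted p = 0.00959). In both genes the classes did not overlap. HTB1 fell by 1.13 ± 0.29 (adjusted p = 0.0214), and HTB2 went from 5.08 ± 0.28 to 4.43 ± 0.33 without passing (adjusted p = 0.081). The H2B genes are close in sequence, and the reporter itself carries an H2B whose gene the labels do not name, so RNA of the reporter and of a probe set's own gene cannot be told apart where both match.

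HIS1-3 encodes a linker histone known to be induced by drought. It read 8.72, 8.30 and 9.64 in 2C and 4.49, 7.48 and 4.76 in 8C. The middle 8C array stood well above its neighbours, so the fall of 3.31 ± 0.79 (adjusted p = 0.0144) hides a spread of 1.65 (SD) within 8C, and the fit of 6 arrays did not call it (adjusted p = 0.0613). HTR12, the centromeric H3, went from 4.19 ± 0.18 to 4.06 ± 0.12, and MGH3, an H3 of male gametes, from 4.73 ± 0.38 to 4.91 ± 0.09. Neither passed. Without 8C replicate 1 the number of called histone genes was 2, as it was without 8C replicate 3. With 6 arrays it was 3, and with 1 of those arrays left out it was between 0 and 3.

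**Figure D3:**
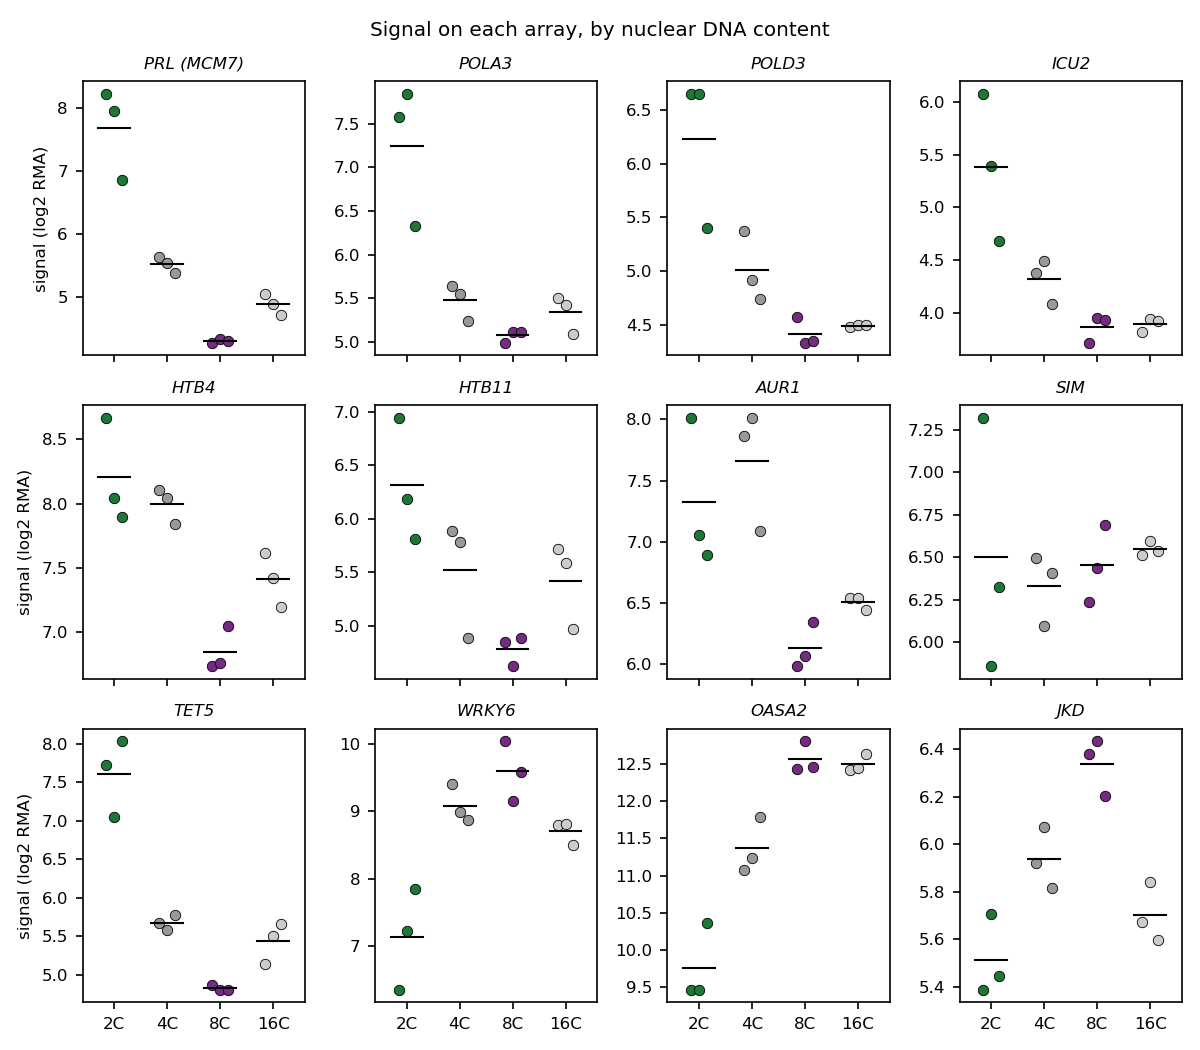
Signal (y axis, log2) of 12 genes on each of the 12 arrays, by DNA content (x axis), with means of 3 arrays as bars; the y axes differ between genes. The 4 replication genes and both H2B genes are higher on every 2C array than on any 8C array, SIM overlaps, and WRKY6, OASA2 and JKD are lower on every 2C array.

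Of 7 measured genes of mitosis and cytokinesis 1 fell and 0 rose (14.3% called, against 19.6% of all genes). AUR1, an Aurora kinase, read 8.02, 7.05 and 6.89 in 2C against 5.98, 6.06 and 6.34 in 8C, and fell by 1.19 ± 0.30 (adjusted p = 0.0182). Its 4C arrays, at 7.86, 8.02 and 7.09, were as high as those of 2C. The fall of AUR1 was not called in the fit of 6 arrays (adjusted p = 0.0649) or without 8C replicate 1 (adjusted p = 0.062). AUR2 read 7.65, 6.07 and 7.82 in 2C against 5.16, 5.76 and 6.33 in 8C, so its classes overlapped, and its change of -1.43 ± 0.52 missed the threshold (adjusted p = 0.0747). AUR3, another Aurora kinase, differed by -0.06 ± 0.21. The checkpoint genes BUBR1, BUB3.1 and BUB3.2 and the INCENP-like gene WYR changed by between -0.46 and -0.01 and did not pass.

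None of the 3 measured regulators of the endocycle was called. SIM, which promotes endocycles by inhibiting cyclin-dependent kinases, read 7.32, 5.86 and 6.32 in 2C and 6.24, 6.44 and 6.69 in 8C. Its classes overlapped, and the difference was -0.05 ± 0.30 (adjusted p = 0.928). BIN4, a part of the topoisomerase VI complex that endocycles need, differed by -0.50 ± 0.31 (adjusted p = 0.275), and SAMBA, a regulator of the anaphase-promoting complex, went from 4.37 ± 0.14 to 4.25 ± 0.02. Of the 55 listed genes of DNA replication and 71 of mitosis, most had no probe set with a single gene in the annotation table used, so the counts describe only the members measured.

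Of 20 measured genes of chromatin remodelling and silencing 5 fell and 1 rose (30.0% called, against 19.6% of all genes). In the fit of 6 arrays 1 was called. NRPD7, a subunit of the plant RNA polymerases of silencing, read 5.93, 5.88 and 5.73 in 2C and 4.96, 4.95 and 4.94 in 8C, and fell by 0.90 ± 0.16 (adjusted p = 0.0031). It was the call that held with 6 arrays. CHR17, a chromatin remodeller, fell by 0.83 ± 0.20, and INO80, the ATPase of another remodelling complex, by 0.46 ± 0.12. AGO7, the Argonaute of trans-acting small RNAs, rose by 1.44 ± 0.29 (adjusted p = 0.0067). Among 8 genes of DNA repair, TOP3A, a topoisomerase, fell by 1.86 ± 0.47 (adjusted p = 0.0187), RAD4 fell by 0.54 ± 0.15, and ATLIG4, the ligase of end joining, rose by 0.59 ± 0.14. The full fit called 37.5% of these 8 repair genes, and 1 was called without 2C replicate 1, 8C replicate 2 or 8C replicate 3.

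The cytoskeleton list held 54 measured genes, of which 14 fell and 3 rose (31.5% called, against 19.6% of all genes). Their median was -0.18. With 6 arrays 6 fell and 1 rose. VIIIB, a myosin of class VIII, read 9.03, 9.30 and 8.45 in 2C against 5.33, 5.57 and 6.01 in 8C and fell by 3.29 ± 0.35, 9.77-fold (adjusted p = 0.000253). TRM24, of a family whose members recruit TON1 proteins to microtubules, read 7.28, 6.92 and 6.65 against 4.25, 4.19 and 4.74 and fell by 2.55 ± 0.22 (adjusted p = 7.97e-05). TUB6, a beta tubulin, fell by 1.75 ± 0.32 (adjusted p = 0.00395), from 8.32, 7.12 and 7.02 to 5.33, 5.77 and 6.11. TRM24 and TUB6 had no overlap between classes. TUB9, TUB7, TUA6 and ACT11, further tubulins and an actin, fell by between 0.84 and 1.57, and ATMAP65-6, which bundles microtubules, fell by 1.34. TRM18 went the other way, with a rise of 1.1 ± 0.17 (adjusted p = 0.00175). The number of calls in this list ranged from 8 to 20 as single arrays were left out.

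Enzymes and proteins of the cell wall split in both directions. Expansins, which loosen walls, gave 2 falls and 1 rise among 19, close to the background of all genes, and 1 was called with 6 arrays or without 8C replicate 1 or 3. EXLB1, an expansin-like gene, read 7.86, 8.75 and 7.53 in 2C against 5.31, 5.50 and 5.23 in 8C and fell by 2.70 ± 0.27, 6.49-fold (adjusted p = 0.000173). EXPA7 and EXPA18, expansins of root hairs, did not pass. Among 10 xyloglucan enzymes (20.0% called, against 19.6% of all genes) XTH21 fell by 1.16 ± 0.25 and XTH19 rose by 1.52 ± 0.38. XTH19 read 4.09, 5.28 and 5.95 in 2C and 6.76, 6.67 and 6.46 in 8C, with 2C replicate 1 the lowest and a change of 1.02 without it, and neither XTH19 nor XTH21 was called with 6 arrays.

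Of 26 genes for cellulose, related polysaccharides and GH9 endoglucanases, 5 fell and 1 rose (23.1% called, against 19.6% of all genes). With 6 arrays, and without 8C replicate 1 or 8C replicate 2, 2 of them were called. GH9B8, an endoglucanase, read 8.24, 7.59 and 7.78 against 5.29, 5.65 and 5.49, and fell by 2.40 ± 0.20 (adjusted p = 7.22e-05). CSLD2, a cellulose synthase-like gene of tip growth, read 7.83, 10.00 and 10.73 in 2C and 12.27, 11.80 and 11.70 in 8C. Its rise of 2.40 ± 0.58 (adjusted p = 0.0153) was not called in the fit of 6 arrays (adjusted p = 0.0915) and was 1.56 without 2C replicate 1. Of 23 trichome birefringence-like genes, whose family acetylates wall polymers, 4 rose and 3 fell (30.4% called), and 4 were called with 6 arrays. TBL41 rose by 2.28 ± 0.38 and TBL38 fell by 1.94 ± 0.19. Tetraspanins, membrane proteins with 4 passes, gave 3 falls and 0 rises among 15, and their 20.0% called is near the share of all genes. TET5 read 7.73, 7.05 and 8.04 in 2C and 4.86, 4.81 and 4.80 in 8C, and it fell by 2.78 ± 0.22 (adjusted p = 5.7e-05), while TET6 fell by 2.31 ± 0.24.

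**Figure D4:**
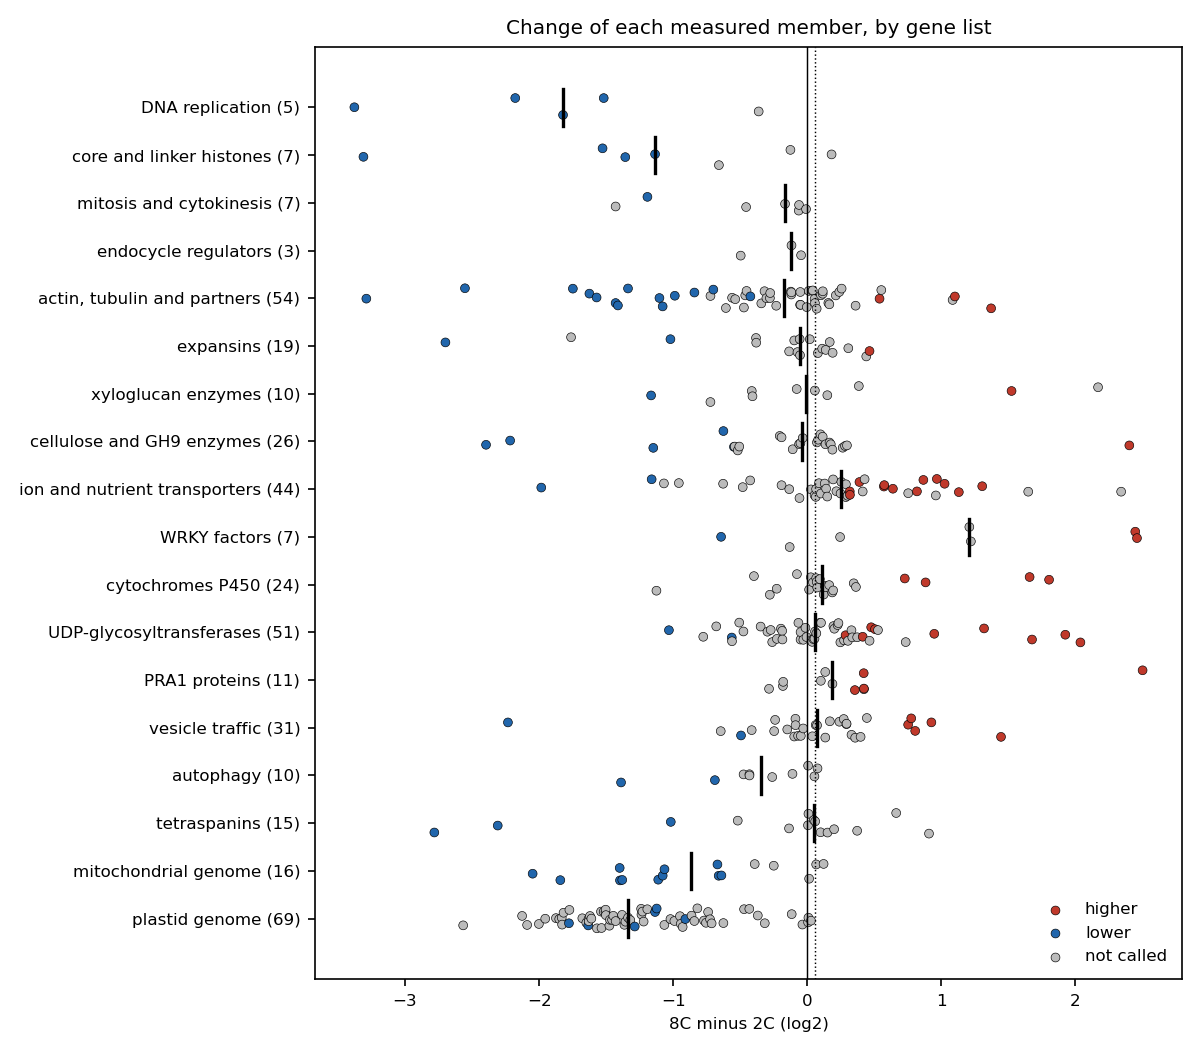
Change from 2C to 8C (x axis, log2) of every measured member of 18 gene lists, with the number measured in brackets. Red and blue points passed the test, black bars are list medians, and the dotted line is the median of all probe sets. The replication genes sit at the left with a median of -1.82, and both WRKY6 and WRKY47 lie beyond 2.4.

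Transporters of ions, nitrate and sugars gave 12 rises and 2 falls among 44 measured genes (31.8% called), with a median of 0.25. Of all genes 19.6% were called, 9.57% higher and 9.99% lower. In the fit of 6 arrays 4 transporters rose and 1 fell. CHX21, a cation and proton exchanger, read 4.04, 4.27 and 4.22 in 2C and 4.92, 5.51 and 5.18 in 8C, and rose by 1.03 ± 0.14 (adjusted p = 0.000767). SAG29, the sugar transporter SWEET15, rose by 1.13 ± 0.16 (adjusted p = 0.00109), with 2C arrays between 4.58 and 5.12 and 8C arrays between 5.75 and 6.09. Neither gene overlapped between classes. AT1G72125 rose by 0.87 ± 0.16. ZIP6, of the zinc transporter family, fell by 1.16 ± 0.18 (adjusted p = 0.00167), from 5.98, 6.26 and 6.77 to 5.04, 5.25 and 5.24. Without 8C replicate 1 and without 8C replicate 3, 6 transporters were called.

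Enzymes that modify hormones and secondary metabolites were called about as often as all genes. Of 51 UDP-glycosyltransferases 9 rose and 2 fell (21.6%), and of 24 cytochromes P450 4 rose and 0 fell (16.7%), against 19.6% of all genes, and with 6 arrays these became 2 rises and 0 falls in each list. UGT76C2, which adds glucose to cytokinins, read 8.84, 8.30 and 8.36 in 2C and 9.67, 9.96 and 9.83 in 8C, and rose by 1.32 ± 0.19 (adjusted p = 0.00115). UGT76D1 rose by 2.04 ± 0.35 and UGT73B5 by 1.68 ± 0.33. CYP71B34 had the smallest p of the cytochromes, with 5.58, 5.20 and 5.07 in 2C and 7.31, 6.85 and 7.11 in 8C, and rose by 1.80 ± 0.17 (adjusted p = 0.000118). CYP71B26 rose by 1.66 ± 0.31. In each of these genes the 8C arrays all lay above the 2C arrays.

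The lists of transcription factors were mixed. WRKY factors were called in 42.9%, homeodomain, GRAS and zinc finger factors in 11.8%, bZIP factors in 18.2% and bHLH factors in 33.3%. Of all genes 19.6% were called. Of 7 WRKY factors 2 rose and 1 fell. WRKY6, a factor of senescence and phosphate responses, read 6.34, 7.22 and 7.84 in 2C and 10.04, 9.16 and 9.58 in 8C. It rose by 2.46 ± 0.34, 5.5-fold (adjusted p = 0.000908). WRKY47 read 5.81, 6.34 and 7.02 against 9.06, 8.27 and 9.18, and rose by 2.45 ± 0.31 (adjusted p = 0.000587). Both genes had 2C replicate 1 at the bottom. ZAP1, also named WRKY1, fell by 0.64 ± 0.19, a call that was not made with 6 arrays.

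Homeodomain, GRAS and zinc finger factors gave 3 falls and 3 rises among 51, and 3 calls with 6 arrays. PHV, a class III homeodomain factor of tissue patterning, read 9.06, 9.05 and 9.07 in 2C and 6.36, 7.39 and 6.48 in 8C and fell by 2.32 ± 0.25 (adjusted p = 0.000238). HAT2, a class II homeodomain factor that auxin induces, fell by 1.43 ± 0.18, and LBD16, which acts in lateral root initiation, by 1.46 ± 0.32. AGL62, a MADS-box factor known from the endosperm, rose by 1.54 ± 0.18 (adjusted p = 0.000382). Of 22 bZIP factors 3 rose and 1 fell, of which 1 was called with 6 arrays, with EEL, a factor of abscisic acid responses in seeds, at a rise of 1.31 ± 0.20. Of 9 bHLH factors ALC and SPT, a pair known from the fruit, fell by 0.98 ± 0.22 and 0.90 ± 0.18, and bHLH115 rose by 0.64 ± 0.19, and 1 of these 3 was called with 6 arrays.

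Hormone lists held few calls. Of the auxin genes 11.1% were called and of those of ethylene, jasmonate and abscisic acid 7.14%, against 19.6% of all genes. These shares rest on few calls each. Among 18 auxin genes LBD16 fell and IAA34 rose by 0.39 ± 0.12, and neither was called with 6 arrays. GH3.3, which joins auxin to amino acids, read 5.58, 6.48 and 8.29 in 2C and 8.24, 7.99 and 9.34 in 8C. Its classes overlapped, and its change of 1.74 ± 0.59 missed the threshold (adjusted p = 0.0585). Of 4 genes of gibberellin and brassinosteroid 1 fell and 0 rose, a share not below that of all genes. The gene that fell was BRL1, a brassinosteroid receptor. BRL1 fell by 0.78 ± 0.11 (adjusted p = 0.00115), from 4.76, 4.48 and 4.80 to 3.83, 3.94 and 3.95. None of 6 cytokinin genes was called in limma, and RR18, the one with the smallest p, differed by 0.10 ± 0.07. Of 14 genes of ethylene, jasmonate and abscisic acid RD2 fell by 0.85 ± 0.21 and the other 13 did not pass.

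Genes of protein turnover and traffic also went both ways. Of the autophagy genes 20.0% were called and of those of vesicle tethering and fusion 22.6%, close to the 19.6% of all genes. The share was 27.3% for subtilases and related proteases and 36.4% for PRA1 proteins. That of ubiquitin transfer lay between 22.6% and 27.3%. Among 10 autophagy genes ATG8B and ATG8C fell, by 1.39 ± 0.20 and 0.69 ± 0.14, and the others were not called. Of 11 subtilases and related proteases 3 fell and 0 rose. SBT4.12 read 10.94, 10.56 and 11.66 in 2C and 8.03, 7.71 and 7.66 in 8C, a fall of 3.25 ± 0.38 (adjusted p = 0.000387), and SBT3.12 fell by 1.81 ± 0.14. Of 32 genes of ubiquitin transfer 4 fell and 4 rose (4 calls with 6 arrays), led by the RING-type gene ATL8 with a fall of 3.01 ± 0.36 and the conjugating enzyme UBC29 with a fall of 2.30 ± 0.19. PRA1 proteins, which act on RAB proteins in membrane traffic, gave 4 rises and 0 falls among 11, and 1 rise with 6 arrays. PRA1.B6 read 7.41, 8.74 and 9.57 in 2C and 10.57, 11.50 and 11.16 in 8C, and rose by 2.50 ± 0.54 (adjusted p = 0.00901), while the other 3 rises were between 0.36 and 0.42. Of 31 genes of vesicle tethering and fusion 5 rose and 2 fell (1 call with 6 arrays), among them SEC1B with a rise of 1.45 ± 0.34.

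The largest fall of a gene with a single-gene probe set was that of LCR69, a defensin-like peptide gene. It read 10.68, 10.12 and 9.32 in 2C and 4.81, 5.72 and 5.17 in 8C, and fell by 4.81 ± 0.44, 28-fold (adjusted p = 0.000111). LCR68, of the same family, read 9.75, 8.24 and 6.86 against 4.72, 4.37 and 5.12 and fell by 3.54 ± 0.76 (adjusted p = 0.00884). The other 13 measured members of the family list were not called (13.3% of the list called, against 19.6% of all genes). MGL, methionine gamma-lyase, read 11.67, 11.80 and 11.48 in 2C and 7.75, 7.35 and 7.47 in 8C. Its fall of 4.12 ± 0.21, 17.4-fold (adjusted p = 9.49e-06), had the smallest SE of the 10 largest falls with a symbol. DPE1, the disproportionating enzyme of starch breakdown, fell by 3.74 ± 0.32 (adjusted p = 8.04e-05), and both genes with the symbol PWD, which phosphorylate starch, fell by 1.82 ± 0.16 and 1.22 ± 0.31. Those 3 were the calls among 8 genes of starch and sugar metabolism (37.5%).

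WNK9, a kinase of the WNK family, fell by 3.71 ± 0.34, FMO, a flavin monooxygenase, by 3.51 ± 0.27, and BAT1, an acyltransferase that acts on brassinosteroids, by 3.42 ± 0.44. BGLU44, a beta-glucosidase, read 7.82, 7.38 and 6.58 in 2C and 4.16, 4.17 and 4.08 in 8C and fell by 3.12 ± 0.25 (adjusted p = 5.83e-05). Of the 10 largest falls 8 carry only a locus code. They ranged from a fall of 4.58 for AT1G69080 to one of 3.93 for AT1G77020. AT5G03610 had the smallest adjusted p of them, 8.05e-06, with 9.26, 9.98 and 9.85 in 2C and 5.51, 5.59 and 5.29 in 8C.

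All of the 10 largest rises carry a locus code, from 3.63 for AT2G22760 to 3.2 for AT3G51660. AT2G22760 read 4.66, 8.23 and 9.53 in 2C and 11.54, 11.07 and 10.68 in 8C, with 1 array of 2C far below its neighbours. Its adjusted p was 0.023, and 0.113 with 6 arrays, and the change was 2.22 without 2C replicate 1. AT1G51270, by contrast, read 5.31, 6.40 and 7.15 against 9.67, 9.83 and 9.71 and rose by 3.45 ± 0.36 (adjusted p = 0.000199). AT2G21550 had the smallest SE of the 10, with 5.39, 5.52 and 6.05 against 8.86, 8.78 and 9.03 and a rise of 3.23 ± 0.22 (adjusted p = 3.4e-05).

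Among genes with a symbol OASA2, an enzyme of cysteine synthesis, read 9.46, 9.47 and 10.36 in 2C and 12.43, 12.81 and 12.46 in 8C. It rose by 2.80 ± 0.25, 6.97-fold (adjusted p = 0.000111), and its 16C arrays, between 12.42 and 12.63, were as high. SAG101, a lipase-like partner of the immune regulator EDS1, read 5.30, 6.41 and 6.81 against 8.89, 9.12 and 8.72 and rose by 2.74 ± 0.37 (adjusted p = 0.000807). GLX2-4, named for a glyoxalase, rose by 2.96 ± 0.40, and pEARLI4 by 2.46 ± 0.23. SCPL34, of the serine carboxypeptidase-like family with 3 rises and 3 falls among 29 (20.7% called, against 19.6% of all genes), rose by 2.07 ± 0.35. BGLU45 rose by 1.84 ± 0.33, against the fall of BGLU44.

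Of 16 mitochondrial genes 11 fell and 0 rose (68.8% called, against 19.6% of all genes), with a median of -0.87. With 6 arrays 10 fell, with 1 of those arrays left out between 1 and 7 were called, and with the poly-A covariate 1 was called. The gene cox1, a subunit of cytochrome oxidase, read 9.86, 9.94 and 9.12 in 2C and 6.95, 7.66 and 8.18 in 8C, and fell by 2.05 ± 0.36 (adjusted p = 0.0034). The gene ccb382, of cytochrome c maturation, read 7.80, 8.20 and 8.29 against 6.53, 6.69 and 6.93 and fell by 1.38 ± 0.19 (adjusted p = 0.000855). In both genes the classes lay apart. Most of the mitochondrial genome also lies as a copy in nuclear chromosome 2 of this ecotype, and the probe sets cannot separate the copies.

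The 69 plastid genes had a median of -1.34, and 6 fell and 0 rose. That is 8.7% called, below the 9.99% of all genes called lower. The gene clpP, a protease subunit, read 11.48, 10.64 and 11.70 in 2C and 8.87, 10.23 and 9.82 in 8C and fell by 1.63 ± 0.41 (adjusted p = 0.0181). In the fit of 6 arrays 0 plastid genes passed, and in the full fit the number was 0 without 8C replicate 1 and 34 without 2C replicate 2. The mean over organelle genes was 7.59 ± 0.71 in 2C against 6.43 ± 0.53 in 8C (p = 0.1, exact permutation test), so it fell by 1.16 while the 3' minus 5' difference of actin fell by 1.13. Of nuclear genes of photosynthesis, LHCB4.1, a light-harvesting protein and the only measured member of the shoot markers, fell by 2.05 ± 0.42 (adjusted p = 0.00691), and CHLM, of chlorophyll synthesis, rose by 2.02 ± 0.41.

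The tissue label was checked on markers. Of 6 markers of cortex and ground tissue 3 were measured. AT1G62500, listed as the gene of the reporter's promoter, read 3.94, 4.37 and 3.78 in 2C and 3.97, 4.01 and 4.08 in 8C, below the median of every array, which lay between 5.22 and 5.36. No detection call goes with the values, so the marker's own transcript was not shown to be present in either class. AT1G09750, another cortex marker, went from 4.86 ± 0.86 to 4.32 ± 0.03 and did not pass. JKD, a zinc finger factor of the ground tissue, read 5.39, 5.71 and 5.45 in 2C and 6.38, 6.43 and 6.20 in 8C and rose by 0.83 ± 0.12 (adjusted p = 0.00114). The summed level of the 3 genes ranged from 6.21 to 6.80 in 2C and from 6.79 to 6.94 in 8C. Both measured markers of epidermis and root hair were not called in 8C against 2C, with a summed level of 5.95 to 6.14 in 2C and of 5.83 to 6.11 in 8C. BBM, the measured marker of the meristem, differed by less than 0.01. Markers of endodermis, non-hair epidermis, stele and root cap had no single-gene probe set, so other tissues were not tested by them.

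Calls were spread over the chromosomes but were more frequent at high than at low signal. When genes were split by mean signal into 5 equal parts, 2.32% of the lowest were called higher and 0.674% lower, and of the highest 19.5% and 16.9%. The share called higher was between 8.71% and 10.3% on the 5 nuclear chromosomes, and the share called lower between 7.93% and 10.8%. Genes called higher had a median length of 2402 bp and genes called lower one of 2364 bp, against 2103 bp for all genes. Their median signal over the 12 arrays was 6.69 and 6.55, against 5.05 for all genes, and length and level were not separated.

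The comparison of 16C with 4C spans the same 2 doublings and shares no array with that of 8C with 2C. It gave 811 calls, 3.57% of those tested, with 385 higher (1.69%) and 426 lower (1.87%). Same-numbered arrays of 4C and 16C deviated together, with correlations of 0.16, 0.43 and 0.49, but 16C replicate 1 correlated more with 4C replicate 2 (0.31). The labels state no pairing, so pairing by number was not settled. With only these 6 arrays 1421 probe sets were called, and with the replicate number as a block in that fit 2335 were, 1050 higher and 1285 lower. Of these, 544 and 815 were called in the same direction in 8C against 2C. Probe sets called higher in 8C had a median of 0.28 in 16C minus 4C against 0.85 in 8C minus 2C, and those called lower a median of -0.43 against -1.02. Both sets were chosen by their change from 2C to 8C. That choice raises the size of the 0.85 and the -1.02, so the medians are not like for like. Of the 385 called higher in 16C, 231 were also called higher in 8C, which is 60.0% of those and 9.85% of the 2344. Of the 426 called lower, 342 were also called lower in 8C, 80.3% of those and 13.0% of the 2637. Called in opposite directions were 8 of the 385 and 5 of the 426.

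The difference between both comparisons was called for 344 probe sets, 1.51% of those tested. Of these, 310 were also called in 8C against 2C, 295 changed more from 2C to 8C than from 4C to 16C, and 183 had opposite signs. PRL was among them, which fell by 3.38 from 2C to 8C and differed by -0.64 from 4C to 16C (adjusted p of the difference = 0.0135). TET5 differed by -2.78 from 2C to 8C and by -0.24 from 4C to 16C, and WRKY6 rose by 2.46 from 2C to 8C while it differed by -0.38 from 4C to 16C. AT1G03660 was the clearest case of opposite signs. It read 7.67, 7.01 and 7.04 in 2C, 6.27, 6.28 and 6.20 in 4C, 6.12, 6.36 and 6.35 in 8C, and 9.05, 8.81 and 8.90 in 16C. The 16C arrays stood above all the others. Of the 16 mitochondrial genes 6 were called on the difference, and cox1 differed by 0.63 from 4C to 16C (adjusted p = 0.403). Both measured markers of epidermis and root hair were called higher in 16C than in 4C, and both were called on the difference. EXPA18, 1 of them, rose by 0.78 ± 0.11 from 4C to 16C (adjusted p = 0.00466). The count of 344 was 156 without 4C replicate 2, 154 without 4C replicate 3, 107 without 8C replicate 1 and 172 without 8C replicate 3. It was 76, 80 and 195 without 16C replicates 1, 2 and 3. With the replicate number as a fixed block it was 236, and as a random block 419.

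**Figure D5:**
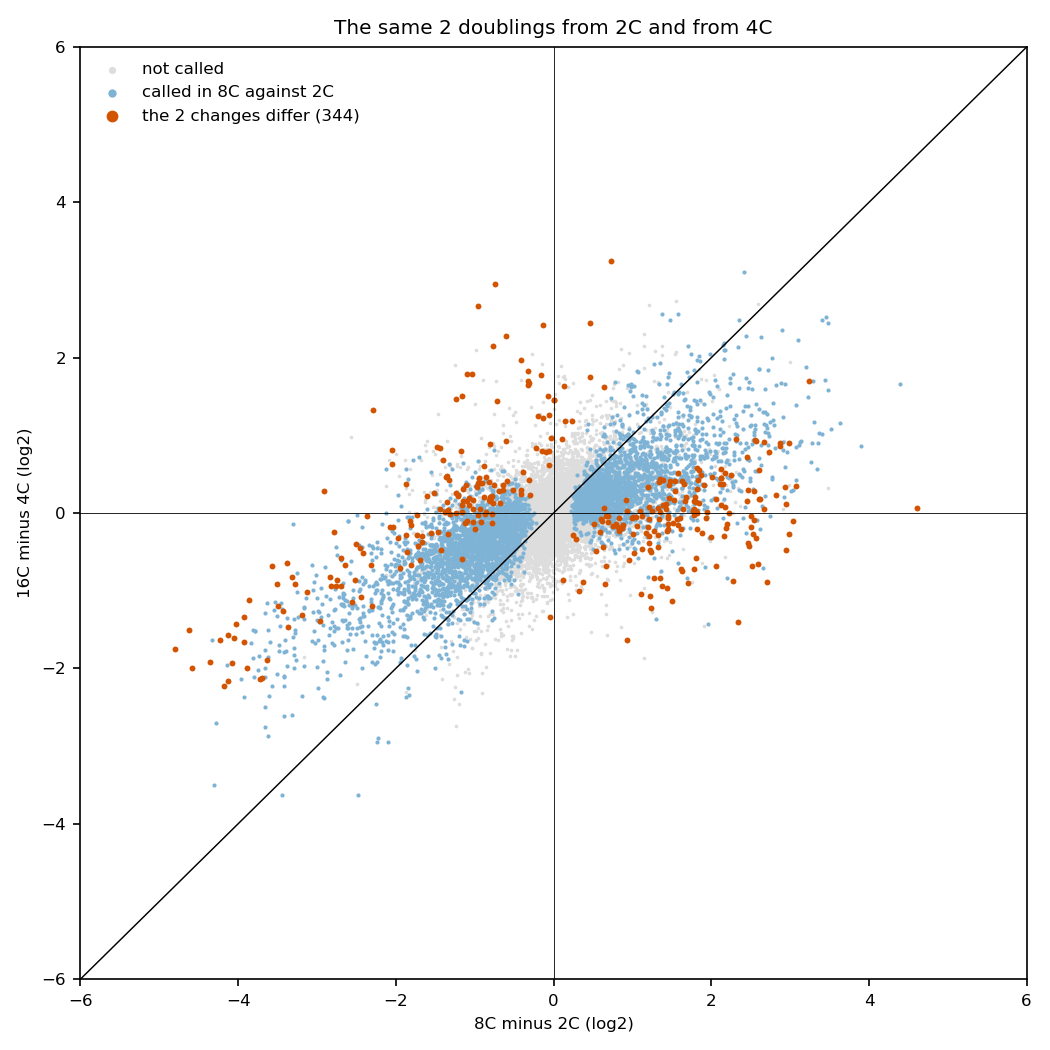
Change from 2C to 8C (x axis, log2) against change from 4C to 16C (y axis, log2) of 22746 probe sets; the diagonal marks equal changes. Light blue points were called in 8C against 2C, and the 344 orange points are those whose changes differed. Of the orange points 295 lie closer to the horizontal line than to the vertical one, so that the change from 4C to 16C is the smaller.

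Each probe set's 4C level was also set against the mean of 2C and 8C. In limma 31, or 0.136%, differed from it, and 2623 had an unadjusted p under 0.05. For those called higher in 8C the 4C arrays lay at a median of -0.14 from the midpoint, and for those called lower at 0.12, on the side of 2C in both. SCPL45 was 1 of the 5 called genes with the smallest p. It read 8.96, 8.03 and 8.57 in 2C, 9.27, 9.46 and 9.40 in 4C, 6.45, 7.04 and 6.83 in 8C and 7.52, 7.63 and 7.34 in 16C. TBL36 was alike, with 4C arrays between 8.70 and 9.00 above those of 2C, and a fall of 1.59 ± 0.22 from 2C to 8C. The count of 31 was 0 in the fit without the 16C class, where 2080 had an unadjusted p under 0.05. It was also 0 without 4C replicate 1, 8C replicate 1, 8C replicate 3, 16C replicate 1 or 16C replicate 2, but 284 without 2C replicate 1, 117 without 4C replicate 3, 8 without 8C replicate 2 and 12 without 16C replicate 3.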

How the data were processed

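Nuclear RNA of 4 DNA content classes, 3 arrays each, was hybridised to ATH1 arrays after 2 rounds of amplification, per the labels' protocols. Each deposited value is the log2 signal of a probe set from RMA, per the submitters' processing notes. No version of it is given in the sources used here. RMA makes the arrays' distributions alike, so a change in total RNA per nucleus cannot be seen. No detection calls came with the values.

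Arrays were grouped by title. The 64 control probe sets were left out. All 12 arrays, with no block, entered a linear model in limma 3.58.1 (functions lmFit, contrasts.fit and eBayes under R 4.3.3), with Benjamini-Hochberg adjustment over 22746 probe sets and a threshold of 0.05. Errors of changes are moderated SEs, errors of means are SDs of 3 arrays. P-values measure the spread between these arrays, and their number limits the precision. The median SD per probe set was 0.20 in 2C and 0.18, 0.16 and 0.12 in the classes 4C, 8C and 16C, so the shared estimate can be too small for 2C. Array values correlated at 0.937 to 0.974 within 2C, 0.974 to 0.981 within 8C and 0.849 to 0.947 between them. Replicates 1 and 2 of 16C correlated at 0.996, the highest of all pairs. Their array weights were 2.69 and 3.47, against 0.36 to 1.29 for the other arrays. Both enter the shared estimate of spread, and whether they are as independent as other replicates was not tested. Without 16C replicate 1 or 2, the calls of 8C against 2C were 4188 and 4182. Same-numbered arrays of 2C and 8C had correlated deviations of -0.25, -0.43 and -0.16, so numbers were not taken to pair arrays of these classes. Those of 4C and 16C (0.16, 0.43 and 0.49) deviated together, but 16C replicate 1 correlated more with 4C replicate 2 (0.31). The labels state no pairing, so the fit with a block on these arrays is only an alternative. On simulated data for 8C against 2C with 22746 probe sets, 66% of 1-unit and 92.5% of 2-unit log2 changes were recovered. That simulation changed 200 probe sets and drew independent normal noise with 1 SD per probe set for all classes. It lacks the unequal spreads of the real classes, so these shares are not the power of the comparison.

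Names came from the platform's annotation, updated to TAIR10.1 for 13436 of 13513 single-gene probe sets. Another 503 had several genes and 8730 had none listed. Where a gene had several such probe sets, that of the highest mean was used. Members and lists were chosen with earlier results of these data known, and lists were completed by name once annotation was at hand. They comprise 53 pathway lists with a measured gene and 8 marker lists, 4 of the latter with a measured gene. Further pathway lists had no measured gene. These were E2F, D-type cyclins and S-phase control, cytosolic ribosomal proteins, arabinogalactan proteins with extensins and other wall proteins, aquaporins, and MYB factors. Lists were described by counts and medians. Named genes were the 10 largest rises and falls among called single-gene probe sets without overlap, the same among genes with a symbol, per list at most 4 called members, those of smallest p (or 1 member where none passed), a set of cell cycle, auxin and marker genes, and the 5 smallest p of both further contrasts. Further list members are given to complete a count and were chosen after their values were seen. Measures of RNA quality were compared with two-sided exact permutation tests in SciPy 1.17.1. Alternatives were replicate blocks, fits of the arrays compared, trend and robust variances, array weights, filters, cyclic loess, reference scaling, both covariates, a 2-fold minimum, averaging probe sets of a gene (for list counts) and leaving out arrays. The fit of 6 arrays with 1 left out and the fits of 16C against 4C with a block or its own arrays were added after seeing the data. A planned search of promoters for motifs was not run, because no sequences were used here.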

Additional observations from a re-analysis of the deposited data

Results flagged for a closer look

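The changes from 2C to 8C and from 4C to 16C, comparisons of the same number of doublings with no array in common, were tested against each other, and their difference passed in 344 probe sets. The values below are the change from 2C to 8C minus the change from 4C to 16C, on the log2 scale, for genes chosen for naming. Those genes were chosen in part by their change from 2C to 8C, so that change tends to be the larger by choice. Classes of 3 arrays were not tested for single outlying arrays.

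Some genes fell in both comparisons, by more from 2C to 8C. The difference was -2.55 for MGL and -1.14 for SBT3.12. Among genes with a locus code it was -2.44 for AT1G63420, -2.59 for AT1G69080, -2.28 for AT1G77020, -2.44 for AT2G16990, -2.60 for AT5G03610 and -1.57 for AT5G58980.

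A larger set fell from 2C to 8C and was not called from 4C to 16C. The difference was -3.06 for LCR69, -2.59 for FMO, -2.74 for PRL, -2.54 for TET5, -2.11 for BGLU44, -2.12 for EXLB1, -1.65 for PHV and -0.77 for BRL1, and it was -1.72 for the more strongly changed of the 2 genes named PWD. It was -2.68 for cox1, -1.39 for ccb382, -1.27 for nad4L and -1.48 for nad9 of the mitochondrial genome, -1.27 for ZIP6 and -0.97 for ATG8C.

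Of the genes that rose from 2C to 8C, AT2G21550 also rose from 4C to 16C, with a difference of 1.53, and AT5G14690 fell there, with a difference of 2.19. The others were not called from 4C to 16C. Their difference was 2.84 for WRKY6, 2.75 for SCPL34, 3.15 for TBL41, 1.66 for CYP71B34, 1.74 for pEARLI4 and 1.06 for JKD, and 1.99 for AT1G01670, 2.14 for AT1G13830, 2.05 for AT1G44160 and 0.92 for AT2G36680. AT1G03660 fell from 2C to 8C and rose from 4C to 16C, with a difference of -3.63.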

How the results depend on the processing

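The 4981 calls of 8C against 2C were 2412 with only the 6 arrays compared, 2576 with only single-gene probe sets (fewer sets tested), 2338 with a 2-fold minimum, 1715 with the poly-A covariate and 0 with the actin covariate. They ranged from 3266 to 5186 as each array was left out, and in the fit of 6 arrays they were 1921, 1178 and 2618 without 2C replicates 1, 2 and 3 and 569, 1089 and 610 without 8C replicates 1, 2 and 3, a set of fits chosen after seeing the data. The 344 calls on the difference from 16C against 4C were 610 with array weights, 164 with single-gene probe sets and 0 with the actin covariate, with 792 at an unadjusted p under 0.05, and 76 to 498 as arrays were left out. No fit of fewer classes exists for it. The 31 calls of 4C against the mean of 2C and 8C were 0 without the 16C class, 200 with array weights, 52 without the dimmest 40% of probe sets, 9 with single-gene probe sets, 98 with reference scaling, 14 with the poly-A covariate, and 0 to 284 as arrays were left out. With the replicate number as a fixed block these 3 counts were 5033, 236 and 8, and with it as a random block 5275, 419 and 35. Over the 4 classes same-numbered arrays did not all deviate together (those of 2C and 8C at -0.25, -0.43 and -0.16, those of 4C and 16C at 0.16, 0.43 and 0.49), so these block counts are not a paired result. The 811 calls of 16C against 4C, where pairing by number was not settled, were 751 and 921 with these blocks. They were 1421 with their own 6 arrays and 2335 with the replicate block on those. These fits of 16C against 4C were all added after seeing the data. The remaining alternatives run for these 3 counts kept each within 1.5 times, among them trend with robust variances (5051, 288 and 25) and cyclic loess (4869, 363 and 44). Averaging the probe sets of a gene, run for list counts alone, kept each list's count within 1.5 times. The cause of these shifts was not tested unless stated.

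The 3' minus 5' difference of actin fell by 1.13 from 2C to 8C, by 1.06 to 1.22 as arrays were left out. For GAPDH the change was 0.20 and for ubiquitin -0.0937.

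Of 160 called genes chosen for naming, 103 were called with 6 arrays, 80 with the poly-A covariate, 144 with reference scaling and 121 to 157 as arrays were left out. With the actin covariate 0 were called, and 21 changed sign, all with an adjusted p of 0.999. Lower in 8C but with a positive change in that fit were AT1G03660 (0.10), ATG8C (0.22), GH9B7 (0.53), HTB1 (0.0504), HTB11 (0.20), TET10 (0.26), clpP (0.10), rpl14 (0.88), rpoC2 (0.61), rps19 (1.14), scpl31 (0.91) and scpl48 (0.23). Higher in 8C but with a negative change were AT1G06620 (-0.62), AT2G22760 (-1.21), CML42 (-0.32), CSLD2 (-0.66), EXPA9 (-0.0386), NANA (-0.0784), SEC1B (-0.0863), UGT73B5 (-0.53) and VPS60.1 (-0.28). Arrays give no depth, and low signals limit what can be called.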
